A study of Mus musculus with 8 samples.

Results

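Expression of 10 genes that build the tight junction was followed in 4 mouse tumour cell lines. They were chosen by gene name, with earlier results of these data known, as 10 of the 55487 genes in the deposited tables. They comprise the claudins Cldn1, Cldn3, Cldn4, Cldn6, Cldn7, Cldn9 and Cldn23, the strand protein occludin (Ocln), and the scaffolds Tjp1 (ZO-1) and Tjp3 (ZO-3). The lines are murine lung squamous cell carcinoma (LUSC) cells grown out of genetically engineered mice, profiled by bulk RNA-seq. The question of the series is what loss of the atypical chemokine receptor ACKR3 does to them. There were 2 libraries for each of 4 lines, the PLA lines PLA4 and PLA and the PL lines PL12 and PL1. The labels do not spell out these letters. They give no allele, no promoter or Cre driver, no age or strain of the mice, no treatment, and no statement on whether a line is a clone, so nothing more can be said of what the groups share or of how Ackr3 was lost.

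Ackr3 checked the line names. It stood at 0.387 and 0.228 CPM (counts scaled to the TMM-adjusted library size) in the libraries of PLA4 and at 0.0487 and 0.0254 CPM in those of PLA, against 25.3 and 26.3 CPM in PL12 and 86.3 and 33.15 CPM in PL1. Library totals ran from 48857960 to 142458281 counts. The libraries of PLA and of PL12 were close to each other, whereas those of PLA4 and of PL1 stood apart. Of 11751 genes that reached 5 CPM in a library, 10.2% differed over 2-fold between the libraries of PLA4 and 8.55% between those of PL1, against 0.0511% in PLA and 0.400% in PL12 (on log2(CPM + 1)). Whether both libraries of a line are separate cultures is not stated, so p-values reflect a library-to-library spread that may be technical only.

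All 6 markers of squamous and basal epithelium were present, with a summed level of 17984 and 18108 CPM in PLA4, 12952 and 12700 CPM in PLA, 1706 and 1784 CPM in PL12, and 17144 and 9065 CPM in PL1. PL12 was thus the line with the lowest squamous markers. Krt5, the basal keratin, averaged 5369 CPM in PLA4 and 6489 CPM in PLA, against 299.5 CPM in PL12 and 3947 CPM in PL1. The 7 markers of fibroblasts and mesenchyme summed to 71.9 and 9.34 CPM in PLA4, 0.837 and 0.787 CPM in PLA, 11.4 and 11.96 CPM in PL12, and 3.51 and 314 CPM in PL1. Most of the 314 CPM of PL1 replicate 2 was Col1a1, a chain of fibrillar collagen, at 253.9 CPM. The 7 markers of endothelium summed to at most 2.44 CPM in a library, with Tie1 and Cldn5 at 0 counts in all 8. The 6 immune markers summed to 54.9 and 52.3 CPM in PLA, nearly all of it Itgam, and to between 1.30 and 13.3 CPM in the other lines, with Cd3e at 0 counts. Of 7 markers of alveolar and airway epithelium, Foxj1 and Nkx2-1 alone reached 1 CPM. Nkx2-1 did so only in PL12, at 8.87 and 8.68 CPM. The 7 markers summed to 9.77 and 0.879 CPM in PLA4 and to 29.9 and 29.1 CPM in PLA. In PL12 the sums were 54.6 and 70.6 CPM, and in PL1 3.34 and 4.22 CPM. The part of other cell types in the results below was not tested, and in bulk RNA fewer cells of a type and less RNA per cell cannot be told apart.

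Tight junctions seal the space between neighbouring epithelial cells near their apical border. Claudins are membrane proteins that pair across the gap between cells and polymerise into strands, and the mixture of claudins sets which ions pass. Occludin joins these strands, and the ZO scaffolds bind the cytoplasmic tails of claudins and tie them to actin. In stratified squamous epithelium claudins are distributed through the layers, and several of them are known as markers of simple, glandular epithelium or of the embryo.

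The promoters of 4 claudins are shown because the results turn on these genes. Cldn6 was read at a high level in PL12 alone. Cldn3 and Cldn7 dropped out of single libraries, and Cldn4, the neighbour of Cldn3, stayed on in all 8. The sequences are from RefSeq on GRCm38.p6 and run 5′ to 3′ on the strand of the gene. They cover 250 bases before the RefSeq start and 50 after it. For Cldn6 that start lies downstream of the gene start in GENCODE M21, 23679249, which is also inside the window. Entries were matched by symbol for 8 of the 10 members, the others being Cldn9 and Cldn23. Capitals mark matches on either strand. The first motif searched was CACCTG, an E-box form that Snail and Zeb repressors bind. The next was GGGCGG, the GC box of Sp factors. The last was TATAAA, the TATA box. No match shown overlaps another.
Cldn6, chr17:23679115-23679414, plus strand: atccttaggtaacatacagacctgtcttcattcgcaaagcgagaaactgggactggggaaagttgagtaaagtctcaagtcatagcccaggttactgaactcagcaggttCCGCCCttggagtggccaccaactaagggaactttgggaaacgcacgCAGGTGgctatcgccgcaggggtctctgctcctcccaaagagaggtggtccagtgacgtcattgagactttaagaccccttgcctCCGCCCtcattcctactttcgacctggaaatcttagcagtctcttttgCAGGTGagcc
Cldn3, chr5:134985964-134986263, plus strand: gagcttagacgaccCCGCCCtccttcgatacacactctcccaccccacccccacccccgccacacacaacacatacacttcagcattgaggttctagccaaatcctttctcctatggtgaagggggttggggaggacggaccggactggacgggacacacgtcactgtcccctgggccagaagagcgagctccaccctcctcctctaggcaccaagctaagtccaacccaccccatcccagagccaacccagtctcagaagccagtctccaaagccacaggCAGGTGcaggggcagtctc
Cldn4, chr5:134946885-134947184, minus strand: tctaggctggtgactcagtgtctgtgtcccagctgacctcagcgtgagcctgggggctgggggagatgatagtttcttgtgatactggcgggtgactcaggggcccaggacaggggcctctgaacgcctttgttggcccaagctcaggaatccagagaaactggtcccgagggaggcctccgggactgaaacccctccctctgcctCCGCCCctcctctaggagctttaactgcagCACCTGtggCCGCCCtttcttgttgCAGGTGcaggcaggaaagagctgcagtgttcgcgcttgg
Cldn7, chr11:69964529-69964828, plus strand: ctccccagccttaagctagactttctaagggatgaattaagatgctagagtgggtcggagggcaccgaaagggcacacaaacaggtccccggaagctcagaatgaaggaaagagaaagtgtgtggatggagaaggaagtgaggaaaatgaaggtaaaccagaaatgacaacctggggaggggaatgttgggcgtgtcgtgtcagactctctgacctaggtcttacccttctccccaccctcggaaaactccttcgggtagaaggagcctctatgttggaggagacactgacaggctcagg
The E-box form occurred 2 times in the window of Cldn6, 1 time in that of Cldn3, 2 times in that of Cldn4 and 0 times in that of Cldn7. Of 32851 promoter windows of the same length, 20.2% held it. The GC box occurred 2 times for Cldn6, 1 time for Cldn3, 2 times for Cldn4 and 0 times for Cldn7, against a share of 35.7% of all windows. None of the 4 windows held the TATA box, which 13.6% of all windows held. These matches describe the letters of the windows and say nothing about binding in these cells.

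Cldn4 was the most abundant claudin in each of the 8 libraries on the per-length scale of the deposited TPM, in which each library has the same total. It accounted for 64.1% and 93.7% of the summed claudin TPM in PLA4, 59.0% and 58.1% in PLA, 35.0% and 35.7% in PL12, and 68.9% and 53.3% in PL1. The summed level of all claudins was 1175 and 513 TPM in PLA4, 1262 and 1283 TPM in PLA, 1748 and 2039 TPM in PL12, and 535.3 and 958.1 TPM in PL1. PL12 thus held both the highest claudin total and the lowest share of Cldn4. The 7 claudins among the members made up between 95.6% and 97.7% of the total in a library.

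**Figure D1:**
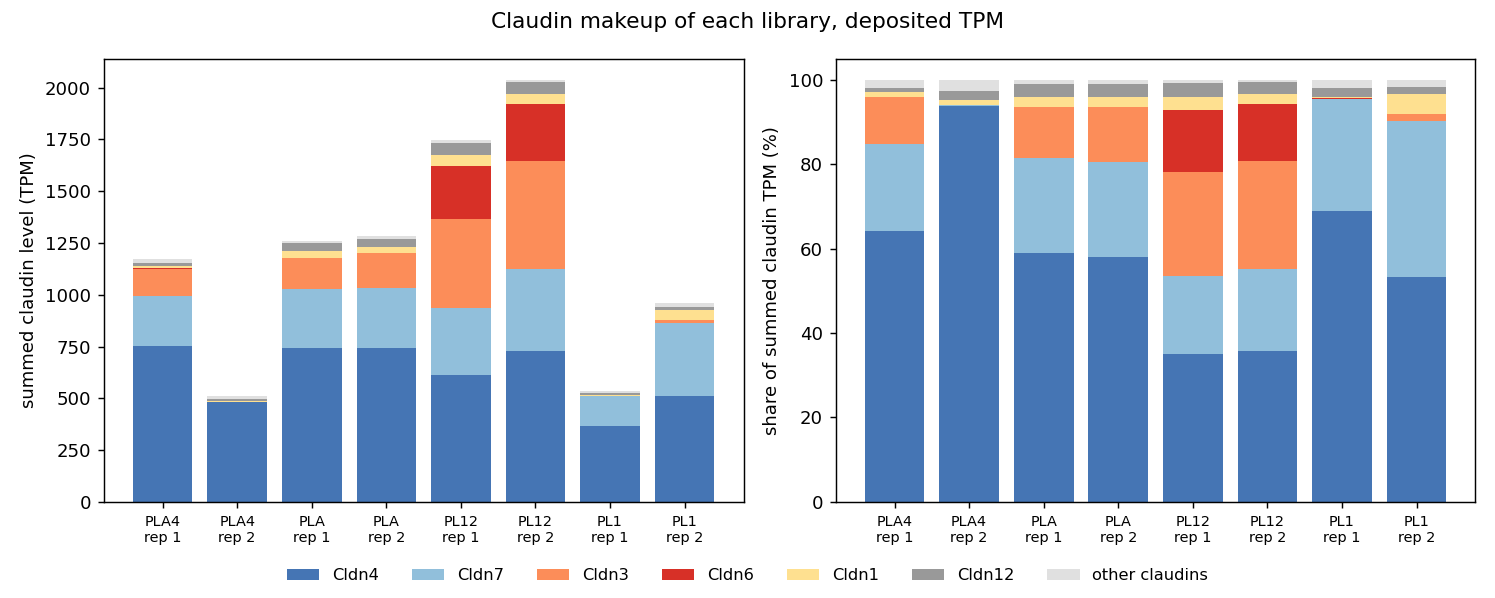
Claudin makeup of each library in the deposited TPM, as summed level in TPM (left) and as share in percent (right), with 1 bar per library and 1 colour per claudin. Cldn6 (red) forms a wide band in PL12 alone, at 14.8% and 13.4% of the total, and PLA4 replicate 2 is 93.7% Cldn4.

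Cldn6, a claudin of embryonic epithelia that is mostly silent in adult tissue, was a PL12 transcript. It stood at 0.317 and 0.00692 CPM in PLA4 and at 0 CPM in both libraries of PLA, against 241.7 and 256.9 CPM in PL12 and 0.138 and 0.0617 CPM in PL1. Both PL12 libraries lay far above the other 6. In counts, PLA4 held 41 and 1 and PLA 0 in both libraries, against 11804 and 27964 in PL12 and 12 and 7 in PL1. Cldn6 was lower in PLA4 than in PL12 by 1538-fold (adjusted p = 0.00322, edgeR) and at least 20055-fold lower in PLA than in PL12, against a floor of 3 counts over the libraries of PLA (adjusted p = 0.00217, edgeR). It was 2497-fold higher in PL12 than in PL1 (adjusted p = 0.00511, edgeR). These 3 calls passed in 15 of 15 alternative settings each. Without PLA4 replicate 1 the fold rests on 1 count and became 36024 (95% exact Poisson interval 6466 to 1422864, counting error only), and without PLA4 replicate 2 it became 785.8. Without PL1 replicate 1 the fold of PL12 over PL1 became 4042, and without PL1 replicate 2 it became 1806. Cldn6 (ENSMUSG00000023906.3) lies on the plus strand of chromosome 17, at 23679249 to 23682446 of GRCm38.

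Cldn9, a claudin known from the inner ear, is the nearest neighbour of Cldn6. It lies on the opposite strand at 23682584 to 23684026, 137 bases beyond the end of Cldn6, with the ends of both genes facing each other. It held 0 counts in both libraries of PLA4 and 1 and 0 counts in PLA, against 1 count in each library of PL12 and 0 counts in both of PL1. This allows no fold and no test, and Cldn9 alone among the members failed the filter on low counts. In PL12 the 11804 and 27964 counts of Cldn6 thus stood beside 1 count of Cldn9 each.

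Cldn3 and Cldn7 separated the libraries of PLA4 widely and those of PL1 less so. Cldn3 (chromosome 5, 134986214 to 134987472, plus strand, 1 exon) is a barrier-forming claudin of simple epithelia and a receptor of Clostridium perfringens enterotoxin. It stood at 98.3 and 0.166 CPM in PLA4 and at 110.6 and 119.1 CPM in PLA, against 318.7 and 397.5 CPM in PL12 and 0.794 and 9.95 CPM in PL1. PLA4 replicate 1 lay next to PLA, and PLA4 replicate 2 lay below PL1. Within PLA4 replicate 2 was 591-fold lower than replicate 1, with 24 counts against 12695, and within PL1 replicate 2 was 12.5-fold higher than replicate 1. Cldn7 (chromosome 11, 69964779 to 69967885, plus strand) encodes a claudin found along the lateral membrane in complex with EpCAM. It stood at 155.4 and 0.741 CPM in PLA4 and at 182.4 and 186.9 CPM in PLA, against 238.4 and 274.4 CPM in PL12 and 90.6 and 201.1 CPM in PL1. Here PLA4 replicate 2 was 210-fold lower than replicate 1, with 107 counts against 20083, while PL1 replicate 1 kept the transcript. The drop of Cldn7 to under 1 CPM was therefore seen in 1 library, and that of Cldn3 in 2, PLA4 replicate 2 and PL1 replicate 1.

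Neither gene passed the test in any of the 6 line comparisons. All 4 lines share the estimate of a gene's spread, so the split libraries of PLA4 and PL1 enter every comparison. Cldn3 in PLA (110.6 and 119.1 CPM) did not overlap PL12 (318.7 and 397.5 CPM), yet edgeR returned 0.55 as the adjusted p for this pair. For Cldn3 and Cldn7, the missing call between PLA and PL12 is therefore no evidence of equal levels. The fitted log2 fold change of Cldn3 was 3.19 ± 2.13 (SE) between PLA4 and PL1 (adjusted p = 0.367, edgeR), and it was -5.01 without PLA4 replicate 1 and 5.96 without PL1 replicate 2. Between PLA and PL1 it was 4.41 ± 2.25 (adjusted p = 0.187, edgeR), with line means of 114.8 and 5.37 CPM. Between PL12 and PL1 it was 6.05 ± 2.43 (adjusted p = 0.121, edgeR), with line means of 358.1 and 5.37 CPM. The comparisons of Cldn3 in PLA and PL12 with PL1 passed in 4 and 6 of 15 alternative settings. For Cldn7 the fitted log2 fold change between PLA4 and PL12 was -1.72 ± 1.67 (adjusted p = 0.453, edgeR), with line means of 78.1 and 256.4 CPM, and it was -8.43 without PLA4 replicate 1.

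Keratins of simple epithelium differed between the libraries of PLA4 in the same direction as Cldn3, and little between those of PL1. The 5 general epithelial markers, these keratins among them, summed to 3158 and 922.3 CPM in PLA4 and 4128 and 4034 CPM in PLA, against 7421 and 8099 CPM in PL12 and 1282 and 1048 CPM in PL1. Krt8 stood at 1686 and 56.1 CPM in PLA4 and at 1334 and 1275 CPM in PLA, against 2941 and 3171 CPM in PL12 and 295.6 and 225.4 CPM in PL1. Krt18, its filament partner, stood at 405.9 and 17.4 CPM in PLA4 and at 786.6 and 737.2 CPM in PLA, against 2268 and 2572 CPM in PL12 and 38.9 and 44.9 CPM in PL1. Krt19 fell to 0.928 CPM in PLA4 replicate 2, against 78.2 CPM in replicate 1, and was at 0.357 and 0.917 CPM in PL1. PLA and PL12 held at least 802.8 CPM of Krt19. Epcam, the partner of claudin-7, differed far less between the libraries of PLA4, at 258.6 and 145.5 CPM. Vim, the mesenchymal filament, stood at 61.6 and 0.242 CPM in PLA4, so that replicate 1 held more Vim, Cldn3 and Cldn7 alike. In PL1, Vim stood at 0.437 and 40.2 CPM and Col1a1 at 0.575 and 253.9 CPM, higher in the library that also held more Cldn1, Cldn3 and Tjp3. The part of these differences in the claudin values was not tested.

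**Figure D2:**
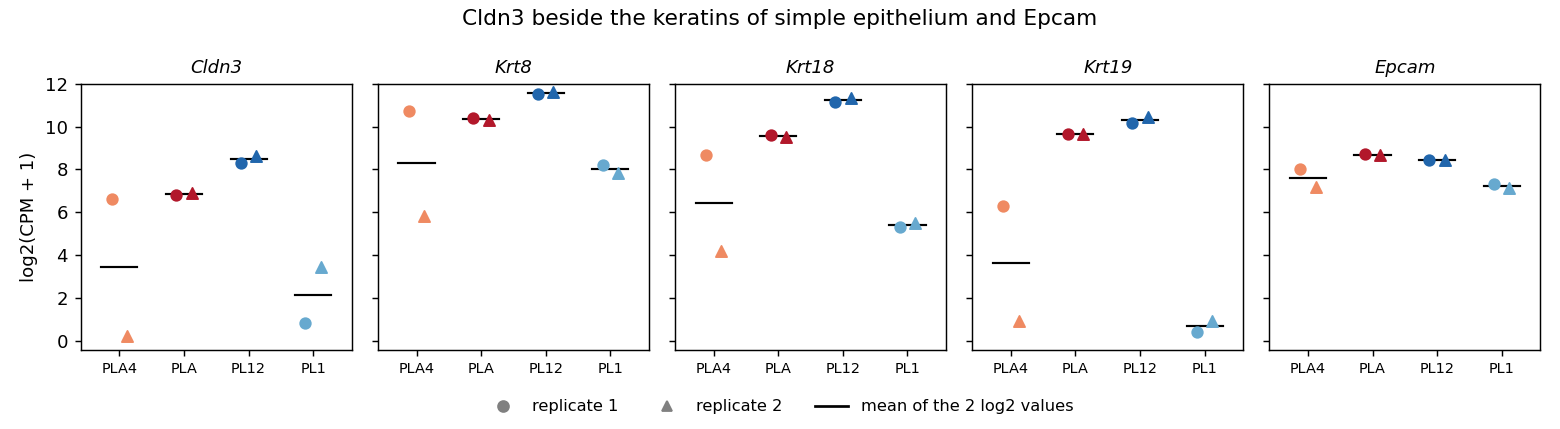
Levels of Cldn3, of the simple-epithelial keratins Krt8, Krt18 and Krt19, and of Epcam on a log2(CPM + 1) axis, for 2 libraries per line (circle, replicate 1; triangle, replicate 2; bar, mean of the log2 values). PLA4 replicate 2 lies below both PL1 libraries for Cldn3, Krt8 and Krt18 and beside them for Krt19, and PLA4 replicate 1 lies near PLA for Cldn3 and Krt8.

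Cldn4 lies beside Cldn3 on chromosome 5, with 39279 bases and 0 other genes wholly between them, yet it stayed high in the libraries with little Cldn3. Cldn4 (134945119 to 134946934, minus strand, 1 exon) encodes a further receptor of the enterotoxin. It stood at 848.1 and 531.9 CPM in PLA4 and at 823.7 and 811.6 CPM in PLA, against 708.4 and 837.6 CPM in PL12 and 419.2 and 544.0 CPM in PL1. Its libraries spanned 1.02 on the log2 scale. Those of PL1 were below those of PLA and PL12, while PLA4 overlapped all 3 other lines. The fitted log2 fold change between PLA and PL1 was 0.76 ± 0.259 (SE, adjusted p = 0.0708, edgeR), with line means of 817.7 and 481.6 CPM, and it passed in 6 of 15 alternative settings. Between PLA and PL12 it was 0.08 ± 0.257 (adjusted p = 0.828, edgeR), with line means of 817.7 and 773.0 CPM, and it passed in 0 of 15. Without PL12 replicate 1 that value was -0.03.

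Cldn1 (chromosome 16, 26356642 to 26371841, minus strand) is required for the barrier of the epidermis. It stood at 27.4 and 13.3 CPM in PLA4 and at 64.5 and 61.8 CPM in PLA, against 117.8 and 107.5 CPM in PL12 and 5.19 and 93.5 CPM in PL1. PL1 spanned most of the range on its own, since its replicate 2 was 18.0-fold higher than replicate 1. No line comparison of Cldn1 passed. Between PLA4 and PL12 the fitted log2 fold change was -2.47 ± 1.12 (adjusted p = 0.131, edgeR), with line means of 20.4 and 112.6 CPM, and it passed in 5 of 15 alternatives. Between PLA4 and PL1 it was -1.28 ± 1.08 (adjusted p = 0.476, edgeR), and without PL1 replicate 2 it was 1.98.

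Cldn23 (chromosome 8, 35824712 to 35826559, minus strand), a less studied claudin, was low throughout. It stood at 7.65 and 1.90 CPM in PLA4 and at 11.98 and 11.7 CPM in PLA, against 14.0 and 13.3 CPM in PL12 and 1.76 and 5.18 CPM in PL1. PLA and PL12 were above every library of PLA4 and PL1, but no comparison passed. In both PLA4 and PL1 its libraries were over 2-fold apart. The fitted log2 fold change was 1.97 ± 0.729 (adjusted p = 0.0977, edgeR) between PL12 and PL1 and 1.77 ± 0.723 (adjusted p = 0.115, edgeR) between PLA and PL1, and each passed in 6 of 15 alternatives.

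Tjp1 (chromosome 7, 65296165 to 65527781, minus strand), which encodes ZO-1, was the tested member whose libraries differed least, by fold, within PLA4 and within PL1. It stood at 163.6 and 155.6 CPM in PLA4 and at 252.4 and 259.6 CPM in PLA, against 475.1 and 417.2 CPM in PL12 and 213.0 and 226.2 CPM in PL1. The libraries of no line overlapped those of another, in the order PL12, PLA, PL1 and PLA4 from high to low. Tjp1 fell in PLA4 relative to PL12, with a log2 fold change of -1.48 ± 0.128 (SE, adjusted p = 9.3e-04, edgeR). It fell in PLA relative to PL12, with a value of -0.80 ± 0.126 (adjusted p = 0.00469, edgeR), and rose in PL12 relative to PL1, with a value of 1.02 ± 0.126 (adjusted p = 0.00404, edgeR). These 3 calls held in 15 of 15 alternatives each. Tjp1 also fell in PLA4 relative to PLA, with a value of -0.68 ± 0.126 (adjusted p = 0.0111, edgeR). This call held in 13 of 15 settings and was lost without PLA replicate 1 (adjusted p = 0.107) or replicate 2 (adjusted p = 0.119). The neighbours PLA and PL1 in that order did not pass, with a log2 fold change of 0.22 ± 0.125 (adjusted p = 0.227, edgeR), nor did PLA4 and PL1, with -0.46 ± 0.125 (adjusted p = 0.0729, edgeR). Within each line the libraries of Tjp1 were at most 1.14-fold apart.

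Tjp3 (chromosome 10, 81273207 to 81291581, minus strand), which encodes the epithelial scaffold ZO-3, varied between libraries of a line where Tjp1 did not. It stood at 53.6 and 9.22 CPM in PLA4 and at 77.6 and 85.8 CPM in PLA, against 114.8 and 116.2 CPM in PL12 and 28.02 and 102.1 CPM in PL1. PLA4 replicate 2 was 5.82-fold lower than replicate 1, and PL1 replicate 2 was 3.64-fold higher than replicate 1. No line comparison passed, and that of PLA4 with PL12 had a fitted log2 fold change of -1.88 ± 0.870 (adjusted p = 0.138, edgeR). Between PLA4 and PL1 it was -1.05 ± 0.851 (adjusted p = 0.457, edgeR), and 0.17 without PL1 replicate 2. A stretch of 40 exonic bases of Tjp3 overlaps the gene Apba3 on the other strand, and a stretch of 40 bases of Cldn3 overlaps the antisense gene Wbscr25. Whether counting used strand is not stated.

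Occludin (chromosome 13, 100496507 to 100552718, minus strand) is a strand protein of the MARVEL family, apart from the claudins. It stood at 101.0 and 55.9 CPM in PLA4 and at 60.5 and 60.9 CPM in PLA, against 122.1 and 106.6 CPM in PL12 and 35.5 and 55.0 CPM in PL1. Both PL12 libraries were above the rest, with PLA4 replicate 1 just below. Ocln rose in PL12 relative to PL1, with a log2 fold change of 1.34 ± 0.319 (SE, adjusted p = 0.0290, edgeR). The call held in 9 of 15 alternatives. It was lost without PL12 replicate 1 (adjusted p = 0.146), PL12 replicate 2 (adjusted p = 0.112), PL1 replicate 1 (adjusted p = 0.102) or either PLA library (adjusted p = 0.0668 each). Between PLA and PL12 the log2 fold change was -0.91 ± 0.316 (adjusted p = 0.0622, edgeR), and it passed in 7 of 15.

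**Figure D3:**
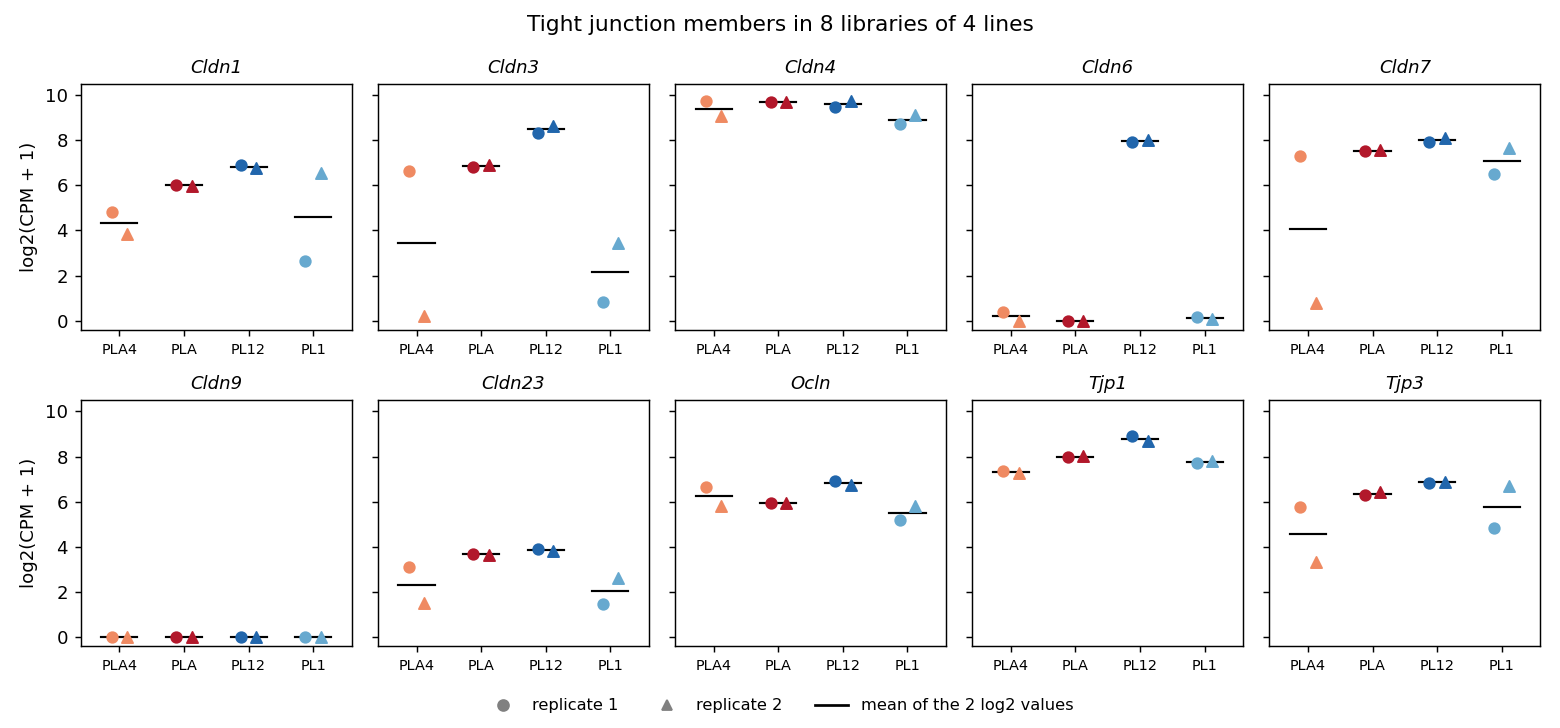
Levels of the 10 members on a log2(CPM + 1) axis in 4 lines with 2 libraries each (circle, replicate 1; triangle, replicate 2; bar, mean of the log2 values). Cldn6 is high in PL12 alone, Cldn9 lies at 0 throughout, and Cldn3 and Cldn7 split the libraries of PLA4, while Tjp1 does not.

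The split between libraries ran in opposite directions by replicate number in PLA4 and PL1. Between the libraries of PLA4, 4 of the 9 tested members (Cldn3, Cldn7, Cldn23 and Tjp3) differed over 2-fold on log2(CPM + 1), all lower in replicate 2, where 10.2% of all genes that reached 5 CPM did so in either direction. In PL1, 5 of 9 did (Cldn1, Cldn3, Cldn7, Cldn23 and Tjp3), all higher in replicate 2, against 8.55% of all genes. In PLA and PL12, 0 of 9 did. Cldn1 missed the mark in PLA4, with a difference of -0.99 on log2(CPM + 1). Tjp1, Cldn4 and Ocln stayed under 2-fold in all 4 lines. Since each line has 2 libraries, these differences have no test of their own.

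**Figure D4:**
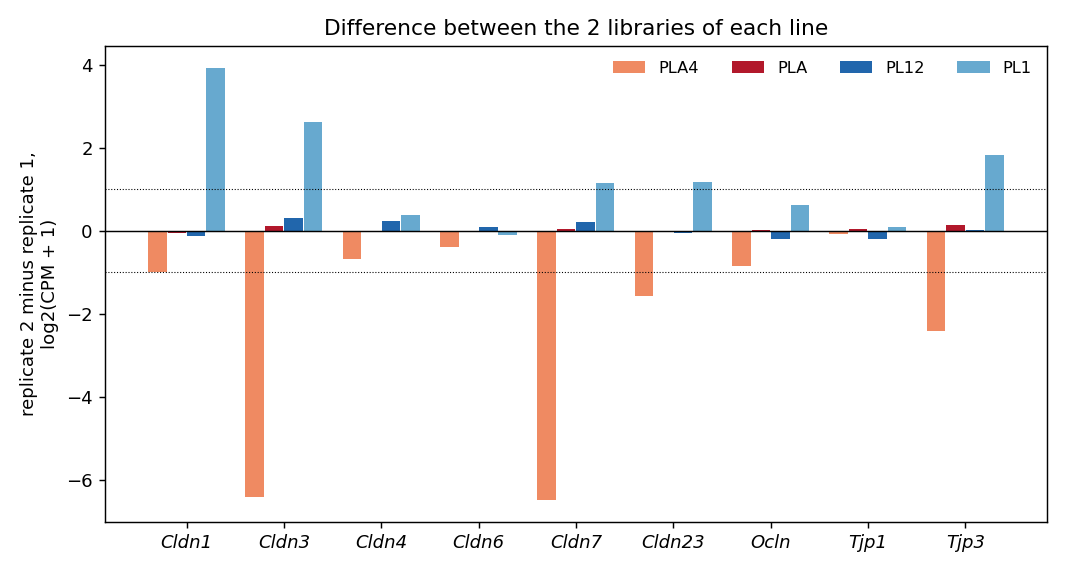
Difference between the libraries of each line, as replicate 2 minus replicate 1 of log2(CPM + 1), for the 9 tested members (bars, 1 colour per line; dotted lines, 2-fold). The bars of Cldn3 and Cldn7 in PLA4 reach -6.41 and -6.49, and that of Cldn1 in PL1 reaches 3.93.

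Setting the PLA lines against the PL lines asks which differences go with loss of Ackr3. No member was called throughout the 4 line pairs that set PLA4 or PLA against PL12 or PL1. In edgeR's quasi-likelihood test on 18648 genes, 0 of 9 members had an adjusted p under 0.05 with the same sign in all 4, against 2.00% of all genes. The count was also 0 at an unadjusted p under 0.05, which 1200 of the 18648 genes met in all 4 with the same sign. It was 0 in DESeq2 and in limma on the TPM, for which the share of all genes was not counted. No member had every library of one family above those of the other, against 15.7% of all genes. On counts summed per line, with the line as replicate, 0 of 9 members and 0.00% of 18861 genes passed, with 0 members and 868 of all genes at an unadjusted p under 0.05, and 0 members in DESeq2 and in limma. The summed log2 fold change (PLA lines over PL lines) of Cldn6 was -10.67 ± 4.26 (SE, adjusted p = 0.852, edgeR). Cldn6 averaged 0.0811 ± 0.115 CPM in the PLA family and 124.7 ± 176.2 CPM in the PL family (SD), nearly all of the latter from PL12. The values of the other tested members ran from -1.23 ± 1.74 (SE) for Cldn3 to 0.22 ± 0.387 for Cldn4. Cldn3 averaged 82.0 ± 46.4 CPM in the PLA family and 181.7 ± 249.4 CPM in the PL family (SD, n = 2 lines each). Cldn4 averaged 753.8 ± 90.3 CPM in the PLA family and 627.3 ± 206.0 CPM in the PL family (SD, n = 2 lines each). The direction for Cldn3 turned to 3.76 without the line PL12 and to 0.69 in limma on log2(TPM + 1), and that for Cldn4 to -0.084 without the line PL1.

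By single comparison, the calls fell on PL12. Between PLA4 and PL12, 2 members (Cldn6 and Tjp1) were called lower, against 36.0% of all genes called in either direction and 16.8% called lower. Between PLA and PL12, the same 2 were called lower, against 37.7% and 17.3%. Between PL12 and PL1, 3 members (Cldn6, Tjp1 and Ocln) were called higher, against 23.7% and 11.2%. Against these backgrounds, 2 or 3 of 9 is no result about the members as a group. The comparisons share lines, so their calls are not independent. Between PLA4 and PLA, Tjp1 was the 1 member called, lower in PLA4, against 29.0% of all genes in either direction and 14.9% lower. No member was called between PLA4 and PL1 (8.55% of all genes, 4.62% higher and 3.93% lower) or between PLA and PL1 (27.3%, 14.4% higher and 12.9% lower) in edgeR. At an unadjusted p under 0.05 there were 2 in each, beside 5429 and 7819 of the 18648 genes. DESeq2 called 1 (22.7% of all genes) and 3 (36.1%), and limma on the TPM called 1 (11.9%) and 0 (34.5%). Single libraries moved these counts. Shares of all genes called in the same fit stand in parentheses. Without PLA4 replicate 1 the count was 7 for PLA4 and PL12 (33.6%), 5 for PLA4 and PLA (30.4%), 1 for PLA4 and PL1 (11.4%), 4 for PLA and PL1 (34.8%) and 6 for PL12 and PL1 (31.2%). Without PLA4 replicate 2 it was 2 for PLA4 and PLA (26.6%), 1 for PLA4 and PL1 (13.4%), 4 for PLA and PL1 (35.2%) and 6 for PL12 and PL1 (31.1%). For PLA4 and PLA it was 2 without PL1 replicate 1 (32.4%) or replicate 2 (33.4%), and 0 without PLA replicate 1 (5.47%) or replicate 2 (5.34%). It was 1 for PLA4 and PL1 without PL1 replicate 1 (10.3%), and 1 for PLA and PL1 without PL1 replicate 2 (26.9%).

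PL12 stood out by its levels more than by its calls. In 8 of the 9 tested members both PL12 libraries lay above the other 6, the exception being Cldn4. Of all genes tested, 17.9% did so. This comparison was not planned, and the members were chosen with earlier results of these data known, so it is a description only. Called higher in PL12 than in each of the other 3 lines were 2 members (Cldn6 and Tjp1), against 5.15% of all genes. This count was added after seeing the data. It was 1 with a 2-fold minimum and 3 without PLA4 replicate 1, where 6.31% of all genes passed. With PL1 replicate 2 and PLA4 replicate 1 both left out it was 7, against 11.7% of all genes, and with the other library of each left out it was 6, against 13.7%. In these fits PL1 and PLA4 have a single library each, which is assumed to vary like those of PLA and PL12. Over the 9 tested members the median log2 fold change was -1.72 between PLA4 and PL12, -0.80 between PLA and PL12 and 1.19 between PL12 and PL1, beside medians over all genes of 0.02, 0.04 and -0.03 in the same order. Cldn6 is at the end of the range in each, so its fitted value does not set these medians. The low squamous markers of PL12 moved with this, and their part in it was not tested.

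**Figure D5:**
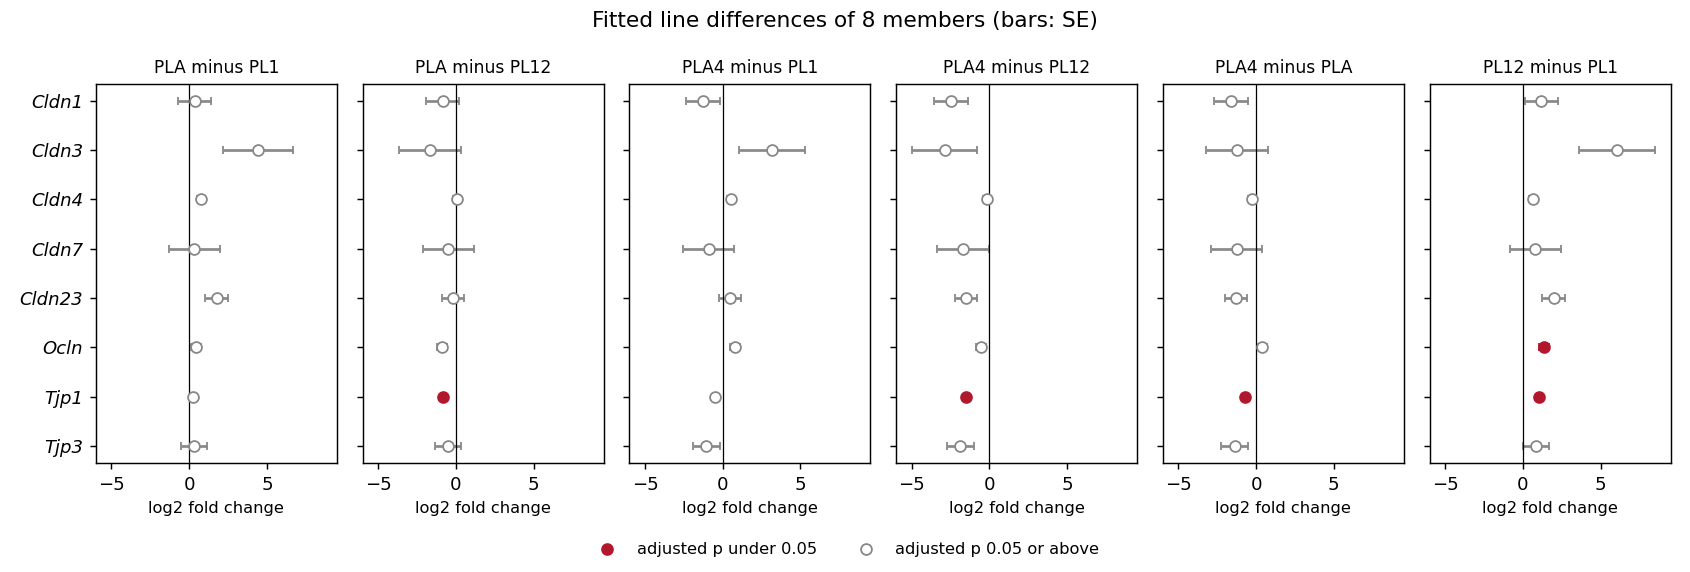
Fitted log2 fold changes of 8 members (points, bars are SE) in 6 line comparisons named above each panel, with filled red points where the adjusted p is under 0.05. Cldn6 is left out because PLA held 0 counts, and Cldn9 was not tested. Tjp1 is called in 4 panels and Ocln in 1, and the wide bars of Cldn3 and Cldn7 come with the split libraries of PLA4 and PL1.

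Beyond the members, claudins were few. Of 28 other claudin genes, 24 were under 1 CPM in every line and 13 had 0 counts in all libraries. Cldn12, a claudin that lacks the usual binding motif for PDZ scaffolds, stood at 26.2 and 20.6 CPM in PLA4 and at 71.9 and 74.3 CPM in PLA, against 128.0 and 112.3 CPM in PL12 and 23.0 and 30.3 CPM in PL1. It was called higher in PL12 than in each other line (adjusted p from 7.72e-04 to 0.0245, edgeR). Cldn8 was highest in PLA4, at 10.8 and 6.14 CPM, against 1.69 and 1.68 CPM in PLA, 1.17 CPM in both libraries of PL12, and 1.44 and 2.39 CPM in PL1, and it was called higher in PLA4 in each of the 3 comparisons (adjusted p from 0.00382 to 0.0294, edgeR). Cldn34c1 stood at 11.8 CPM in both libraries of PLA4 and at 0.341 and 0.296 CPM in PLA, against 0 CPM in PL12 and 8.73 and 7.29 CPM in PL1. Cldn2, which forms channels for cations, reached 8.02 CPM in PL1 replicate 2 and at most 2.10 CPM in any other library, with no call.

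The wider junction machinery was described from a list of 36 partner genes, all of which were tested. Between PLA4 and PL12, 7 were called higher and 13 lower, against 19.2% higher and 16.8% lower over all genes. Between PLA and PL12, 9 were higher and 12 lower, against 20.4% and 17.3%. Between PL12 and PL1, 10 were higher and 3 lower, against 11.2% and 12.5%. Between PLA4 and PLA, 3 were higher and 9 lower, against 14.1% and 14.9%. Between PLA4 and PL1, 2 were higher and 1 lower (4.62% and 3.93%), and between PLA and PL1, 8 were higher and 3 lower (14.4% and 12.9%). Called higher in PL12 than in every other line were 9 of the 36, among them Cgn (cingulin), a junction plaque protein named after its values were seen, against 5.15% of all genes. Called lower in PL12 than in every other line were F11r, Pard3 and Pard6g (adjusted p from 2.95e-04 to 0.0403, edgeR). The share of all genes called lower in this way was not counted. F11r and Pard3 were likewise named after their values were seen. F11r averaged 404.1 CPM in PLA4 and 546.1 CPM in PLA, against 276.1 CPM in PL12 and 485.3 CPM in PL1. Cgn stood at 55.1 and 64.9 CPM in PLA4 and at 96.4 and 95.96 CPM in PLA, against 171.1 and 176.7 CPM in PL12 and 52.9 and 64.1 CPM in PL1. The median log2 fold change of the list was -0.34 between PLA4 and PL12, -0.13 between PLA and PL12 and 0.13 between PL12 and PL1. Amot, an angiomotin scaffold, stood at 0.906 and 0.685 CPM in PLA4 and 0.195 CPM in both PLA libraries, against 74.5 and 66.3 CPM in PL12 and 0.115 and 1.57 CPM in PL1 (adjusted p from 0.0031 to 0.00978 for the 3 comparisons with PL12, edgeR). Ildr2, an angulin of tricellular junctions, stood at 0.0310 and 0 CPM in PLA4 and 0.00812 and 0 CPM in PLA, against 19.8 and 17.8 CPM in PL12 and 0.0230 and 1.02 CPM in PL1. Pard6b, a subunit of the apical polarity complex, stood at 7.17 and 4.62 CPM in PLA4 and 42.5 and 44.3 CPM in PLA, against 132.9 and 132.0 CPM in PL12 and 6.87 and 14.1 CPM in PL1. Jam2, a junctional adhesion molecule, stood at 1.32 and 0.104 CPM in PLA4 and 18.5 and 16.9 CPM in PLA, against 78.9 and 74.8 CPM in PL12 and 4.61 and 3.92 CPM in PL1. Jam2 is not among the 9, since it was not called between PLA and PL12 (adjusted p = 0.0947, edgeR).

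Pard6g, a paralog of Pard6b, went the other way and was the only partner called in all 4 comparisons of PLA with PL lines. It stood at 214.5 and 243.0 CPM in PLA4 and at 182.3 and 176.8 CPM in PLA, against 25.6 and 23.5 CPM in PL12 and 139.7 and 107.3 CPM in PL1. The 4 PLA libraries were above the 4 PL libraries. Its log2 fold changes were 3.22 (adjusted p = 2.95e-04) for PLA4 and 2.87 (adjusted p = 3.49e-04) for PLA over PL12, and 0.89 (adjusted p = 0.0278) for PLA4 and 0.54 (adjusted p = 0.0480) for PLA over PL1, all in edgeR. With 1 of 36 partners, the share is near the 2.00% of all genes.

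Among 14 partners of epithelial adhesion, Afdn (afadin), which links nectins to actin, averaged 96.8 CPM in PLA4 and 245.4 CPM in PLA, against 439.0 CPM in PL12 and 133.5 CPM in PL1. It was called higher in PL12 than in each other line, 1 of the 14, near the 5.15% of all genes. Cdh3 (P-cadherin), a cadherin of basal cells, averaged 243.7 CPM in PLA4 and 264.1 CPM in PLA, against 66.7 CPM in PL12 and 361.7 CPM in PL1, and was called lower in PL12 than in each other line (adjusted p from 0.00205 to 0.00275, edgeR). Nectin1, an adhesion receptor, averaged 243.0 CPM in PLA4 and 205.4 CPM in PLA, against 47.6 CPM in PL12 and 275.9 CPM in PL1. Nectin2, its paralog, stood at 69.8 and 12.96 CPM in PLA4 and at 112.7 and 115.9 CPM in PLA, against 177.3 and 188.2 CPM in PL12 and 33.0 and 78.1 CPM in PL1. It differed between libraries in the same direction as Tjp3 and passed in no comparison.

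Of 9 epithelial proteases and their inhibitors, 0 were called higher and 6 lower in PLA4 than in PLA, against 14.1% and 14.9% of all genes, and 5 higher and 0 lower in PLA than in PL1, against 14.4% and 12.9%. The counts were 0 higher and 3 lower between PLA4 and PL12 (19.2% and 16.8% of all genes), and 1 and 1 between PLA4 and PL1 (4.62% and 3.93%). They were 3 and 0 between PLA and PL12 (20.4% and 17.3%), and 4 and 0 between PL12 and PL1 (11.2% and 12.5%). Prss22 stood at 1.98 and 3.98 CPM in PLA4 and 75.3 and 76.6 CPM in PLA, against 67.7 and 78.8 CPM in PL12 and 11.1 and 26.8 CPM in PL1. Tmprss4 stood at 4.24 and 1.26 CPM in PLA4 and 103.2 and 100.3 CPM in PLA, against 3.81 and 4.15 CPM in PL12 and 0.0690 and 0.908 CPM in PL1. Hpn (hepsin) stood at 0.178 and 0.0138 CPM in PLA4 and 7.53 CPM in both libraries of PLA, against 0.0410 and 0.0276 CPM in PL12 and 0 and 0.0969 CPM in PL1. Tmprss11e stood at 7.98 and 3.25 CPM in PLA4 and 53.95 and 55.4 CPM in PLA, against 57.1 and 51.2 CPM in PL12 and 14.9 and 21.4 CPM in PL1. PLA held the highest Tmprss4 and Hpn, while Prss22 and Tmprss11e overlapped between PLA and PL12.

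Of 19 regulators of epithelial genes, 2 were called higher and 7 lower in PL12 than in PL1, against 11.2% and 12.5% of all genes. Between PLA4 and PL12 the counts were 7 higher and 7 lower (19.2% and 16.8% of all genes) and between PLA and PL12 8 and 2 (20.4% and 17.3%). They were 2 and 6 between PLA4 and PLA (14.1% and 14.9%), 1 and 1 between PLA4 and PL1 (4.62% and 3.93%) and 3 and 3 between PLA and PL1 (14.4% and 12.9%). Trp63, the squamous lineage factor, averaged 345.9 CPM in PLA4 and 356.3 CPM in PLA, against 27.7 CPM in PL12 and 376.7 CPM in PL1. Grhl3, a grainyhead factor of the skin barrier, averaged 15.4 CPM in PLA4 and 14.2 CPM in PLA, against 1.39 CPM in PL12 and 20.7 CPM in PL1, where its libraries were split (14.8 and 26.7 CPM). Sox2 averaged 119.9 CPM in PLA4 and 26.4 CPM in PLA, against 11.3 CPM in PL12 and 69.7 CPM in PL1, and was called in all 6 comparisons. Cdx2, an intestinal homeobox factor, averaged 0.00774 CPM in PLA4 and 10.1 CPM in PLA, against 15.6 CPM in PL12 and 0.656 CPM in PL1, so PLA and PL12 held it and the other lines did not reach 1 CPM. Of 7 repressors of epithelial genes, 0 were called higher and 2 lower in PL12 than in PL1, against 11.2% and 12.5% of all genes. Between PLA and PL12, 2 were higher and 1 lower (20.4% and 17.3%), and in each of the other 4 comparisons 1 was called in all, a count too small to set against the background. Snai2 (Slug), which binds E-boxes, averaged 96.7 CPM in PLA4 and 71.3 CPM in PLA, against 7.57 CPM in PL12 and 91.03 CPM in PL1 (adjusted p from 2.46e-04 to 4.6e-04 for the comparisons with PL12, edgeR). Zeb2 stood at 2.45 and 0.325 CPM in PLA4 and 0.0650 and 0.110 CPM in PLA, against 2.64 and 2.47 CPM in PL12 and 1.24 and 11.2 CPM in PL1, with the libraries of PLA4 and PL1 split, and was called lower in PLA than in each PL line. Tcf4 averaged 32.5 to 52.3 CPM over the lines, with no call.

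The genes whose pattern was most like that of each member were sought among 10212 other genes averaging 5 CPM or more, by the root mean square difference of log2(CPM + 1) deviations over the 8 libraries. This distance is not scaled by the range of a gene, so members that vary little tend to have small distances. Tjp1, which spans 1.60, had the smallest, to Mast2 (0.10) and Heatr5a (0.12). Ocln was nearest to Chn2 (0.13) and Nudt19 (0.18), and Cldn4 to Apobec3 (0.13) and Tpcn1 (0.13). Cldn23 was nearest to Atp10b (0.23) and Vav2 (0.25), Cldn1 to Slc28a3 (0.28) and Ly6a (0.37), and Tjp3 to Nectin2 (0.31) and Ptprj (0.43). The members with the widest ranges had the largest distances, so the ranking of members in part restates their ranges. Cldn3, which spans 8.42 on this scale, was nearest to Krt18 (0.81) and Gvin1 (1.05). Cldn6 was nearest to Mrc1 (0.98) and Slc38a1 (0.98), which were likewise highest in PL12, at 63.3 and 94.2 CPM. Cldn7, which spans 7.31, was nearest to Parvb (0.91) and Ccn2 (0.92). The 8 libraries come from 4 lines, and for several members the libraries of PLA4 or PL1 are split. These distances therefore reflect differences between libraries of a line as well as between lines, and they carry no test.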

How the data were processed

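RNA was measured in 8 libraries, 2 for each of 4 lines. Per the labels' protocols, RNA was purified with an RNeasy kit, copied by the SMARTer approach and tagged with Nextera XT. Per the file headers, the authors deposited an expected count and a TPM value for each gene. GRCm38, STAR, RSEM, FastQC and DESeq2 are named per the submitters' processing notes, with no version or role, and the annotation release is not stated. Of the expected counts 14.2% were not whole, but 80 of 80 member values were (within 1e-06), and counts were rounded before testing.

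Tests used edgeR 4.0.16 (R 4.3.3, quasi-likelihood, TMM, filterByExpr with minimum count 10 and minimum total 15). The fit had a mean for each line, 4 residual degrees of freedom and 18648 genes, 9 of them members. The spread of a gene was estimated over all lines, so a line with split libraries also widens the SE between other lines. For such genes a missing call between PLA and PL12 is no evidence of equal levels. Fits on counts summed by line held 18861 genes and 2 residual degrees of freedom. SE came from the F statistic, and p was adjusted by Benjamini-Hochberg over all genes, with a threshold of 0.05. DESeq2 1.42.0, limma 3.58.1 on log2(TPM + 1), other scalings and filters, and left-out libraries and lines were the alternatives. On simulated counts (18033 genes), 40% of 4-fold and 58% of 16-fold changes were recovered in all 4 PLA and PL line pairs, with 0 false calls. Apart from the added changes, all lines had the same mean and spread for a gene in this simulation. It therefore gives no rate of false calls for data in which single lines differ or libraries of a line are split. Coordinates are from GENCODE M21 on GRCm38, and 54435 identifiers matched with their version.

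Named genes were all members, other claudins with a line mean of 1 CPM, list genes called in all 4 pairs, and up to 4 genes per list with the widest range of line means (at least 5 CPM). The members and lists were chosen with earlier results of these data known.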

Additional observations from a re-analysis of the deposited data

How the results depend on the processing

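Of 963 alternative values of the members' log2 fold changes, 797 kept direction and side of the threshold, 123 newly passed, 8 no longer passed and 35 changed sign. None of those that changed sign was called in the main analysis. The number of members called, beside 1 (PLA4 and PLA), 2 (PLA4 and PL12), 0 (PLA4 and PL1), 2 (PLA and PL12), 0 (PLA and PL1) and 3 (PL12 and PL1), depended on the setting. DESeq2 called 2 for PLA4 and PLA (37.2% of all genes) and 1 for PLA4 and PL1 (22.7%). It called 3 for PLA and PL1 (36.1%) and 6 for PL12 and PL1 (31.8%). Without a filter on low counts there were 2 for PLA4 and PLA (18.4%), 2 for PLA and PL1 (17.3%) and 5 for PL12 and PL1 (14.8%). Limma on TPM called 1 for PLA4 and PL1 (11.9%). A 2-fold minimum left 0 for PLA4 and PLA, 1 for PLA and PL12, and 1 member called higher in PL12 than in each other line, a count that was added after seeing the data. Without PL1 replicate 2 and PLA4 replicate 1 the counts were 7, 9, 7, 7, 8 and 9 in the order above (56.7%, 58.8%, 7374 of 19380, 64.5%, 56.5% and 51.2% of all genes), 1 in all 4 PLA and PL pairs and 7 highest in PL12. Without PL1 replicate 1 and PLA4 replicate 2 they were 6, 7, 8, 8, 6 and 8 (54.9%, 59.9%, 44.2%, 63.9%, 52.7% and 51.5%), with 2 in all 4 pairs and 6 highest in PL12. Leaving out 1 library gave 0 to 5, 2 to 7, 0 to 1, 2 to 3, 0 to 4 and 2 to 6 in that order, 0 in all 4 pairs, 2 to 3 highest in PL12 and 0 on summed profiles. The cause of these shifts was not tested. All genes called moved widely with the setting too, as given below. In the fits that leave out a library of both PL1 and PLA4, the share of all genes called in all 4 pairs was not counted. The member counts in all 4 pairs there thus have no background beside them and are no result about the members. A line left with 1 library adds nothing to the estimate of the spread and is assumed to vary like the others.

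Log2 fold changes that changed sign when 1 library was left out were the following, given as their range. Between PLA4 and PL1 they ran from -5.01 to 5.96 for Cldn3, -0.87 to 1.44 for Cldn23, -3.58 to 1.73 for Cldn6, -7.62 to 0.11 for Cldn7, -2.82 to 0.17 for Tjp3 and -2.20 to 1.98 for Cldn1. Between PLA and PL1 they ran from -0.32 to 1.49 for Tjp3, -0.12 to 0.97 for Cldn7 and -0.56 to 3.55 for Cldn1. Cldn4 ran from -0.030 to 0.22 between PLA and PL12, from -0.53 to 0.14 between PLA4 and PL12 and from -0.62 to 0.12 between PLA4 and PLA, where Ocln ran from -0.12 to 0.80. On summed profiles Cldn23 ran from -0.34 to 0.17 and Ocln from -0.44 to 0.027. Without PL1 replicate 2 and PLA4 replicate 1 together, those that changed sign were Cldn3 (-2.25), Cldn1 (1.35) and Cldn6 (-4.10) between PLA4 and PL1 and Ocln between PLA4 and PLA (-0.12). Without PL1 replicate 1 and PLA4 replicate 2 together, they were Tjp3 (-0.37), Cldn7 (-0.17) and Cldn1 (-0.62) between PLA and PL1 and Cldn4 between PLA4 and PL12 (0.13) and between PLA4 and PLA (0.12). On summed profiles Cldn23 became 0.45 without the line PLA4, Cldn4 became -0.084 without the line PL1, and Cldn3, Cldn23 and Ocln became 3.76, 1.16 and 0.57 without the line PL12. In limma Cldn3 became 0.69 and Cldn23 0.10 on log2(TPM + 1), and 0.76 and 0.13 on log2(TPM + 0.1).

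Replicate numbers did not pair the libraries, since the correlations of same-numbered deviations ran from -0.194 to 0.015. With a replicate block 2 members in place of 3 were called between PL12 and PL1 (17.0% of all genes), Ocln being lost (adjusted p = 0.0555, edgeR). The counts were 1 for PLA4 and PLA (22.6%), 2 for PLA4 and PL12 (29.9%) and 0 for PLA4 and PL1 (2.95%). They were 2 for PLA and PL12 (31.9%) and 0 for PLA and PL1 (20.7%). With 2 libraries per line, calls rest on few degrees of freedom, and counting error is small beside the difference between libraries of PLA4 or of PL1. Over the alternatives, genes called ran from 1052 to 10983 between PLA4 and PLA, 2457 to 11709 between PLA4 and PL12, 199 to 8640 between PLA4 and PL1, 2456 to 12501 between PLA and PL12, 1090 to 10951 between PLA and PL1, 763 to 10064 between PL12 and PL1, and 0 to 354 on summed profiles.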
